A study of Mus musculus with 6 samples.

Results

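The genes described here are the IL-6 family cytokines Il6, Lif, Il11 and Clcf1, the receptor chains Il6st (gp130), Il6ra, Lifr and Osmr, the transcription factor Stat3 and the inhibitor Socs3. They were taken by symbol from a table of 17525 genes, and all 10 of 10 were present and passed the filter on low counts that left 15954 genes for testing. Poly(A) RNA was sequenced from cultured, unpassaged cardiac fibroblasts of C57BL/6 mice aged 6 weeks. Knockdown cells (3 samples) received a lentivirus carrying a short hairpin RNA against Sipa1 together with an EGFP reporter. Control cells (3 samples, genotype labelled WT) received a scramble lentivirus, and whether it also carried the reporter is not labelled. Both groups were then exposed to lipopolysaccharide (LPS, a bacterial cell-wall component sensed by Tlr4) at 1 µg/ml for 24 h, added 72 h after the virus, and all 6 samples carry the same batch label. No cells without LPS or without virus were analysed here, so each level below belongs to the stimulated, transduced state. Whether replicates were grown from separate cultures or animals is not labelled, so p-values here weigh group differences against a spread that may be technical.

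The cytokines described here signal through gp130, a shared chain encoded by Il6st that most of the wider family also uses. IL-6 first binds its own receptor chain (Il6ra) and IL-11 binds Il11ra1, and each complex then pairs gp130 with itself, while LIF joins gp130 to the LIF receptor (Lifr) and oncostatin M, in mice, joins it to Osmr. The paired chains activate JAK kinases, which phosphorylate STAT3, and SOCS3 is a STAT3 target that binds gp130 and JAKs and shuts the signal off. In the heart this family is known for acute inflammatory and survival signals to cardiomyocytes and, for IL-11, for fibroblast activation.

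Depth ranged from 37309897 to 41273283 reads in genes for knockdown libraries and from 30930998 to 41839742 for scramble libraries. The targeted gene checked the labels. Sipa1 (NCBI gene 20469), which encodes a GTPase-activating protein for Rap, averaged 17.6 ± 2.41 CPM in knockdown cells and 42.04 ± 1.46 CPM in scramble cells (SD, n = 3 each; CPM is the read count of a gene scaled to a common library size with TMM correction). That is a log2 fold change of -1.25 with an SE of 0.075 (edgeR adjusted p = 2.64e-11). An exact permutation test of its CPM over the libraries, two-sided, gave p = 0.1, the smallest that 3 against 3 allows. Fibroblast markers were abundant, with summed levels of 21146 to 23337 CPM in knockdown and 21488 to 24405 CPM in scramble libraries over 8 of 8 listed genes, led by collagens. Of these markers 0 rose and 3 fell, beside 16.4% rising and 15.8% falling over all genes tested. Those that fell were Tcf21 by 0.84, Pdgfra by 0.30 and Dcn by 0.18 on the log2 scale (edgeR adjusted p = 1.11e-11, 8.82e-06 and 0.0114). The part of this shift in the members' values was not tested.

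Sequence upstream of the members is shown for Il6, Il11, Lif and Socs3, because those windows hold a match to a motif of the factors that LPS and cytokines activate, and because these genes include 2 that rose, 1 that fell and 1 that did not pass the test. The windows run from 250 bases before to 50 bases after an annotated RefSeq start (GRCm38.p6) and are written 5′ to 3′ on the gene's own strand, with motif matches in capitals. The motifs, searched on both strands, were the NF-kappaB consensus, TTCNNNGAA for STAT factors, TGACTCA or TGAGTCA for AP-1 and TTNNGCAA for C/EBP.
Il6 (chr5:30012864-30013163, plus strand): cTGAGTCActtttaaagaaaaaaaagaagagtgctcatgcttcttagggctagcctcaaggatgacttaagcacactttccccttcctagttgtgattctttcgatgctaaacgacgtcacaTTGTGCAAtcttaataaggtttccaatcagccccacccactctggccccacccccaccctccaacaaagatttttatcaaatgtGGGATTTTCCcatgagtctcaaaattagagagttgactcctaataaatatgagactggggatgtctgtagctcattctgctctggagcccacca
Il11 (chr7:4778092-4778391, minus strand): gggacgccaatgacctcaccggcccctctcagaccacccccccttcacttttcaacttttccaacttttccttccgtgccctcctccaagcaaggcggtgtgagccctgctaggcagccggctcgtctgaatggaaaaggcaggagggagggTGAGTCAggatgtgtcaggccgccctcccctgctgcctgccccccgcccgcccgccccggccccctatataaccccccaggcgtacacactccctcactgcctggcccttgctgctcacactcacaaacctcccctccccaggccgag
Lif (chr11:4257318-4257617, plus strand): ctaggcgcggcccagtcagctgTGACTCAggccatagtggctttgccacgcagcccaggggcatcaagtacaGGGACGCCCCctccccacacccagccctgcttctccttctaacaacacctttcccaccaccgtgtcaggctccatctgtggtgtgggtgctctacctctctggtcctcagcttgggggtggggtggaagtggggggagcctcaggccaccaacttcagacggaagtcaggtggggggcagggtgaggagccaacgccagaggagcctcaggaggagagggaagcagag
Socs3 (chr11:117969317-117969616, minus strand): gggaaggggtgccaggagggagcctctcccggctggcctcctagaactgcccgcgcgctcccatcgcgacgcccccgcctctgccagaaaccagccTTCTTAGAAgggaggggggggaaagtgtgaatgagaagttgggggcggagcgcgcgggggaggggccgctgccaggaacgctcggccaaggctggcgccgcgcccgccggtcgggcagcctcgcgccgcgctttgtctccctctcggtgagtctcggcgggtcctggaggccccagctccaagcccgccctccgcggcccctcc

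The Il6 window held an NF-kappaB match (GGGATTTTCC) at bases -44 to -35 from the start, a C/EBP match (TTGTGCAA) at -128 to -121 and an AP-1 match at -249 to -243. Il11 held an AP-1 match at -98 to -92 of the window shown. A second annotated Il11 window (chr7:4782808-4783107) held no match to any of the motifs. The Lif window carried an AP-1 match at -228 to -222 and an NF-kappaB match at -178 to -169. A STAT match (TTCTTAGAA) lay at -154 to -146 of Socs3. None of these matches overlapped another. Across 32851 such windows of the mouse genome, 8.46% held the NF-kappaB motif, 8.3% the STAT motif, 5.2% the AP-1 motif and 10.8% the C/EBP motif. RefSeq gave 11 windows for 9 of the 10 members, of which 4 held any match. The share of all windows that hold any of the motifs was not computed. The count of 4 therefore cannot be set against the shares of single motifs. Windows of Il6st, Il6ra, Lifr, Osmr and Stat3 held none of these letters. Clcf1 had no entry. Binding was not measured, so a match describes the sequence only.

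Il6 was the most abundant member and stood far above its own receptor chain. On the authors' TPM scale, which corrects for transcript length, Il6 averaged 1685 ± 137 in knockdown and 1719 ± 85.9 in scramble cells (SD, n = 3 each), above 99.5% of the genes in the table by its scramble mean. In knockdown cells the members then followed in the order Lif (195 TPM), Stat3 (179.6), Il6st (153), Osmr (132), Clcf1 (91.6), Il11 (65.9), Socs3 (35.9), Il6ra (5.19) and Lifr (3.36). In scramble cells the order was Lif (235 TPM), Il6st (212), Stat3 (183), Osmr (145), Clcf1 (94.7), Il11 (44.8), Socs3 (29.3), Lifr (6.02) and Il6ra (4.85). Neighbours in either order did not overlap in their library values, and 2 pairs traded places: Il6st with Stat3, and Lifr with Il6ra. These levels are a description, and no test was made between genes.

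**Figure D1:**
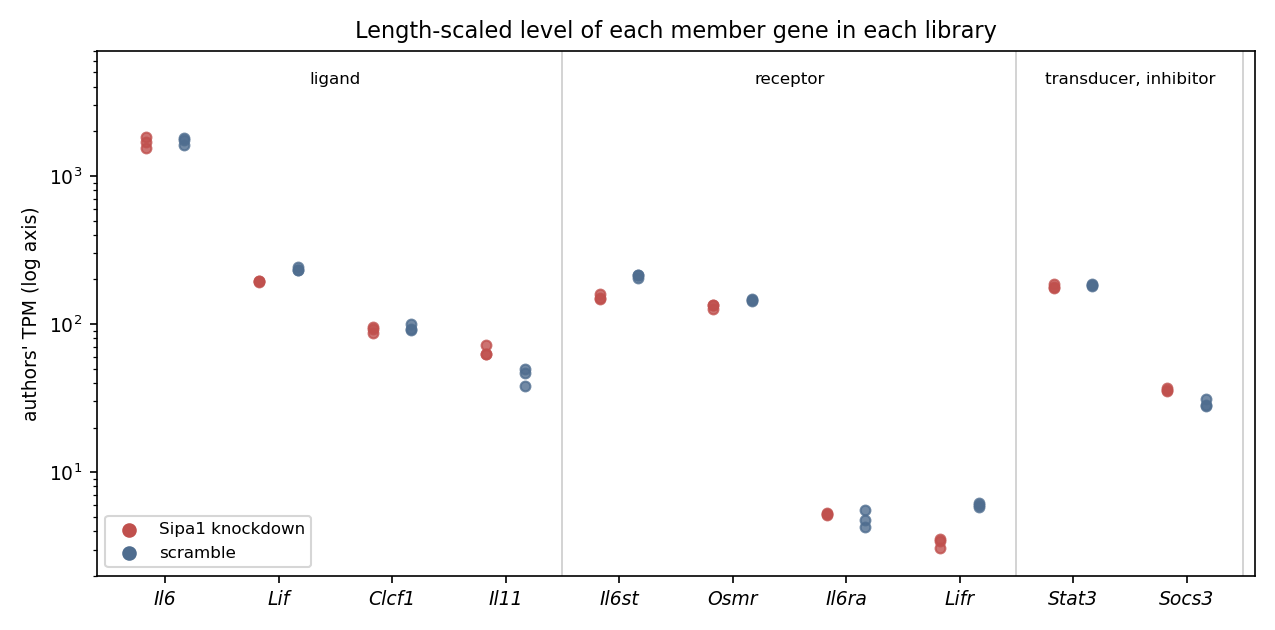
Authors' TPM (log axis) of each member gene in each library, knockdown left and scramble right, grouped by role. Il6 lies between 1547 and 1821 TPM in all 6 libraries, while Il6ra and Lifr lie at or below 6.17 TPM.

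Set against the whole table, the family was split. Of the 10 members, 2 rose (Il11 and Socs3), 4 fell (Lifr, Il6st, Lif and Osmr) and 4 did not pass the test (Il6, Clcf1, Il6ra and Stat3), with a median log2 fold change of -0.02. Over all 15954 genes tested, 32.2% passed, 16.4% rising and 15.8% falling, and the median log2 fold change was -0.00. Among the 10864 genes that averaged at least 5 CPM, as every member did, 40.9% passed. The knockdown and scramble libraries did not overlap for 43.6% of all genes tested. That share was not computed for the genes averaging at least 5 CPM. Among the members, the libraries did not overlap for 6 of 10. With 10 genes chosen with earlier results known, this count is not evidence of a shift of the family, and no test of the family as a group was made. The authors' deposited table, from a test whose tool the labels do not name, made the same call as edgeR for 10 of 10 members, 6 called in the same direction and 4 not called. Both tests use the same 6 libraries, so this is not independent support.

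Among the ligands, only Il11 was higher in every knockdown library. Il11 (NCBI gene 16156; GRCm38.p6 chromosome 7, 4772373 to 4782907) encodes interleukin 11, a cytokine known to act on fibroblasts themselves. It stood at 54.4, 53.1 and 60.5 CPM in knockdown replicates 1, 2 and 3, against 32.9, 37.8 and 42.2 CPM in scramble replicates 1, 2 and 3. The groups did not overlap, and the scramble libraries spread more widely than the knockdown ones relative to their mean. The log2 fold change was 0.57 (SE 0.075, 95% interval 0.41 to 0.73, edgeR adjusted p = 1.55e-05), a 1.49-fold rise. This ligand carried 2.89% to 3.51% of the summed TPM of the 4 ligands in knockdown libraries and 1.94% to 2.33% in scramble libraries. Its annotated span overlaps Tmem190, which has no row in the table used here.

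Lif, whose product joins gp130 to the LIF receptor, moved the other way. Lif (chromosome 11, 4257568 to 4272514) had 360.1, 356 and 356 CPM in knockdown replicates 1, 2 and 3, against 422, 425 and 415 CPM in scramble replicates. The knockdown values lay within 5 CPM of each other and all below the lowest scramble value. Expressed as log2 fold change this is -0.24 (SE 0.040, 95% interval -0.32 to -0.15, edgeR adjusted p = 7.93e-05), which left 84.9% of the scramble level.

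Il6 and Clcf1 did not pass the test. Il6 (chromosome 5, 30013114 to 30019975) had 776, 901 and 830.1 CPM in knockdown replicates 1, 2 and 3, against 809.98, 844 and 864 CPM in scramble replicates. Knockdown replicates 1 and 2 lay on either side of the whole scramble range. Fitted over the libraries this came to a log2 fold change of -0.0063 (SE 0.051; edgeR adjusted p = 0.945), with a 95% interval of -0.11 to 0.10, or 0.925 to 1.07-fold. Il6 supplied 81.6% to 84.1% of the summed ligand TPM in knockdown libraries and 81.9% to 82.3% in scramble libraries. Clcf1 (chromosome 19, 4214238 to 4223505), a cytokine that signals through Cntfr, Lifr and gp130, had 76.4, 70.4 and 76.8 CPM in knockdown replicates, against 74.1, 77.6 and 75.8 CPM in scramble replicates. The groups overlapped, and the log2 fold change was -0.025 (SE 0.048, 95% interval -0.12 to 0.07, edgeR adjusted p = 0.741). A pair of overlapping long noncoding RNA genes at the Clcf1 locus, LOC102631992 and Gm45928, had at most 25 reads in any library.

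**Figure D2:**
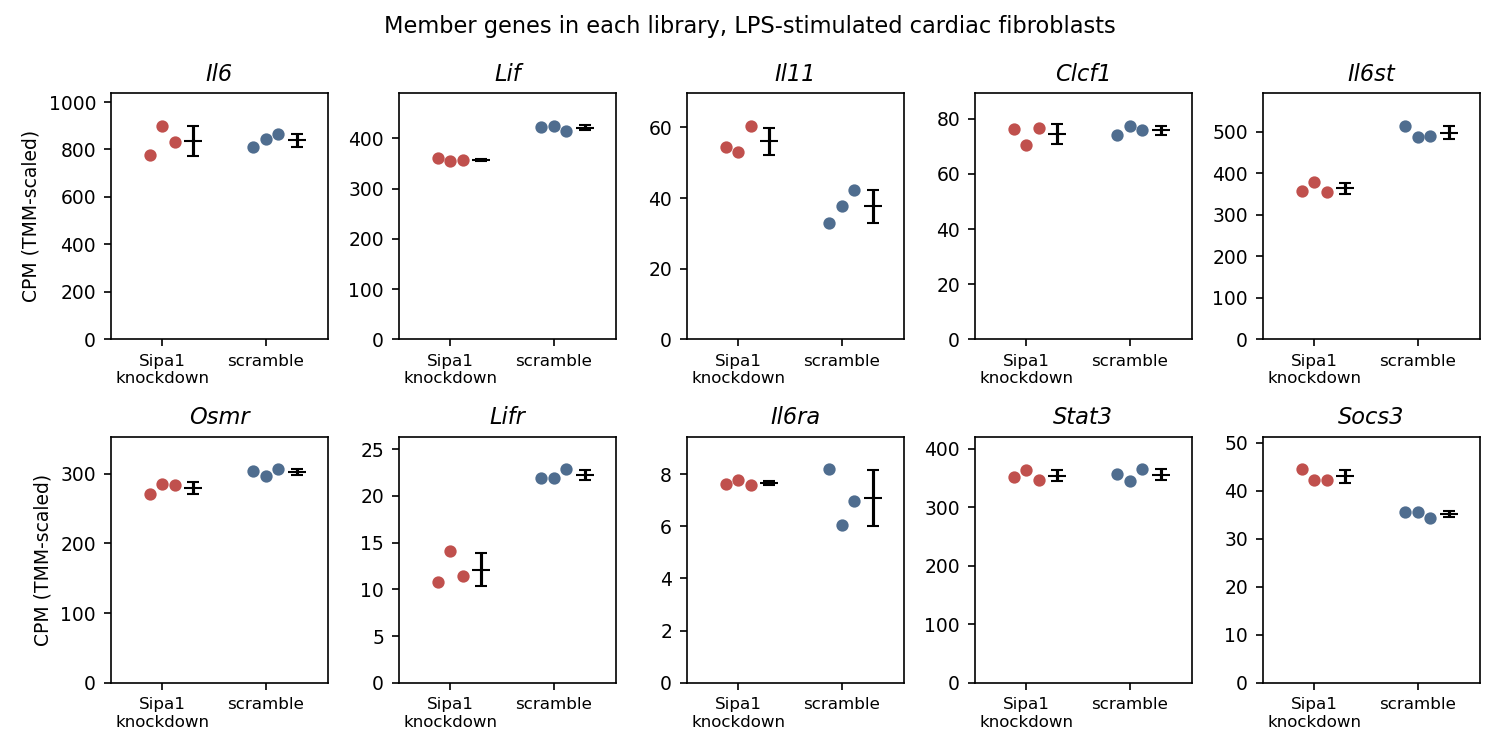
CPM of each member in each library, knockdown (red) left of scramble (blue); the black mark and bar give the mean and SD of 3 libraries, and every axis starts at 0. The groups are apart for Il11, Socs3, Lif, Il6st, Lifr and Osmr, and overlap for Il6, Clcf1, Il6ra and Stat3.

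The receptor chains that carry LIF signals were lower in knockdown cells. Il6st (NCBI gene 16195; chromosome 13, 112464070 to 112506860), the gp130 chain, had 357, 379 and 354 CPM in knockdown replicates 1, 2 and 3, against 514, 488 and 489.9 CPM in scramble replicates. No knockdown library came near the scramble range. Its log2 fold change was -0.45 (SE 0.044, 95% interval -0.54 to -0.36, edgeR adjusted p = 2.97e-08), which left 73.0% of the scramble level. Lifr (NCBI gene 16880; chromosome 15, 7090610 to 7197489), the LIF-binding chain, was counted with 407, 576 and 430 reads in knockdown replicates 1, 2 and 3, against 874, 698 and 946 reads in scramble replicates. That is 10.8, 14.1 and 11.5 CPM in knockdown cells and 21.9, 21.96 and 22.9 CPM in scramble cells. Every knockdown library lay below every scramble library, with replicate 2 the highest of the knockdown group. As a log2 fold change, Lifr stood at -0.87 (SE 0.085, 95% interval -1.05 to -0.70, edgeR adjusted p = 3.55e-08), which left 54.6% of the scramble level. On log2(FPKM + 1), where low values shrink, it was -0.52, still past the threshold.

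Osmr, the mouse oncostatin M receptor chain, differed by less. Osmr (chromosome 15, 6813568 to 6874968) had 270.4, 286 and 284 CPM in knockdown replicates 1, 2 and 3, against 303, 297 and 307 CPM in scramble replicates. The groups did not overlap, but the highest knockdown and the lowest scramble library lay close together. The log2 fold change was -0.11 (SE 0.042, 95% interval -0.20 to -0.02, edgeR adjusted p = 0.0453). This call was lost in 9 of 17 alternatives, among them without knockdown replicate 1 (adjusted p = 0.161) or 3 (0.0837) and without scramble replicate 1 (0.122) or 3 (0.158), with a range of 0.0195 to 0.161.

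Il6ra, the chain that binds IL-6 itself, was scarce in both groups. Il6ra (chromosome 3, 89869324 to 89913196) had 287, 318 and 285 reads in knockdown replicates 1, 2 and 3, against 327, 192 and 289 reads in scramble replicates. Those counts gave 7.64, 7.77 and 7.59 CPM in knockdown cells and 8.20, 6.04 and 6.99 CPM in scramble cells, and the knockdown values lay inside the scramble range. A log2 fold change of 0.11 resulted (SE 0.11; edgeR adjusted p = 0.510), and its 95% interval of -0.13 to 0.35 is wider than that of any other member that did not pass. Without scramble replicate 1 the value was 0.23 and without scramble replicate 2 it was 0.013, neither past the threshold. On the TPM scale gp130 exceeded Il6ra 29.4 ± 0.752 times in knockdown and 44.3 ± 5.69 times in scramble libraries, and exceeded Lifr 45.5 ± 2.03 times in knockdown and 35.2 ± 1.39 times in scramble libraries (SD, n = 3 each).

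Downstream of the receptors, Socs3 rose and Stat3 did not pass the test. Socs3 (NCBI gene 12702; chromosome 11, 117966079 to 117970336), the feedback inhibitor of gp130, had 44.5, 42.1 and 42.2 CPM in knockdown replicates 1, 2 and 3, against 35.5, 35.5 and 34.4 CPM in scramble replicates. All knockdown values were above all scramble values. Its log2 fold change reached 0.29 (SE 0.053, 95% interval 0.18 to 0.40, edgeR adjusted p = 1.75e-04), a 1.22-fold rise. Stat3 (chromosome 11, 100886806 to 100939594) had 351, 364 and 346 CPM in knockdown replicates, against 357, 345 and 365 CPM in scramble replicates, which overlap. Its log2 fold change was -0.0077 (SE 0.042, 95% interval -0.09 to 0.08, edgeR adjusted p = 0.916). These are transcript levels; phosphorylation of STAT3 was not measured.

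**Figure D3:**
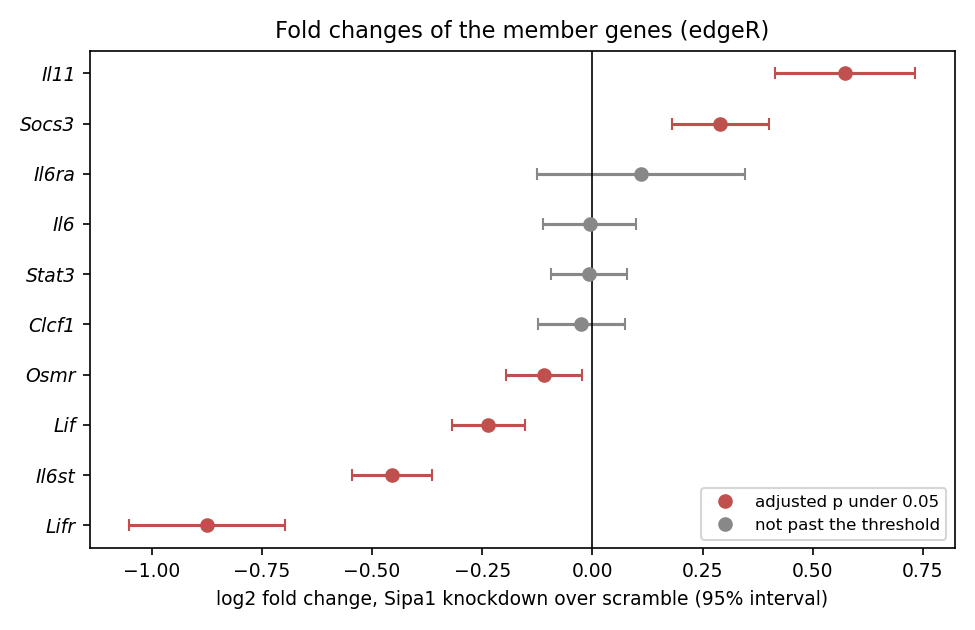
Log2 fold change (knockdown over scramble, edgeR) of the 10 members with 95% intervals, red where the adjusted p is under 0.05. Values run from -0.87 for Lifr to 0.57 for Il11, and the intervals of Il6ra, Il6, Stat3 and Clcf1 cover 0.

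The remaining ligands and receptors of the family, with 2 proteases that shed IL-6 receptor, gave 1 rising and 1 falling of 9 tested genes, beside 32.2% called over all genes (5 more listed genes, Ctf2, Il27, Ebi3, Il31 and Il31ra, have no row), with a median log2 fold change of -0.036. Cntfr, the binding chain for Clcf1, averaged 4.50 ± 0.161 CPM in knockdown and 3.42 ± 0.409 CPM in scramble cells (SD, n = 3 each) and rose by 0.40 on the log2 scale (SE 0.14, edgeR adjusted p = 0.0322). That call was lost without knockdown replicate 1 (adjusted p = 0.0862), 2 (0.0586) or 3 (0.0547), without scramble replicate 1 (0.0623) or 3 (0.160), with DESeq2 (0.0504) and on unfiltered FPKM values (0.0628), the alternatives together spanning 0.0246 to 0.160. The size of the Cntfr change also moved, to 0.91 on log2(FPKM + 0.1) and 0.31 without scramble replicate 3. Il11ra1, the receptor chain for IL-11, stood at 52.05 ± 1.84 CPM in knockdown and 51.7 ± 3.53 CPM in scramble cells (log2 0.0094, SE 0.055, edgeR adjusted p = 0.921). Of the sheddases, Adam10 fell by 0.13 on the log2 scale (edgeR adjusted p = 0.0235), which was lost without knockdown replicate 1 (0.0902) or 3 (0.0728) or scramble replicate 1 (0.0677) or 3 (0.0721) and in all 3 tests on FPKM (0.0537 to 0.0626), the alternatives spanning 0.00966 to 0.0902. Adam17 had a log2 fold change of -0.063 (SE 0.043, edgeR adjusted p = 0.293). Oncostatin M itself was barely counted: Osm had 9, 15 and 13 reads in knockdown replicates 1, 2 and 3, against 19, 3 and 19 reads in scramble replicates.

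In the relay of kinases, STAT factors and the phosphatase SHP2, 1 gene rose and 6 fell of 14 tested, with a median log2 fold change of -0.088, beside 32.2% called over all genes and 40.9% over those averaging at least 5 CPM. Stat2, a transcription factor of interferon signalling, fell to 118 ± 5.53 CPM in knockdown cells, against 151 ± 2.99 CPM in scramble cells (log2 -0.36, SE 0.044, edgeR adjusted p = 1.29e-06), and the adaptor Gab2 fell by 0.32 on the log2 scale. Jak2 fell by 0.18 on the log2 scale (edgeR adjusted p = 0.00307), but did not pass on FPKM values (adjusted p of 0.102 to 0.144; lowest over all alternatives 0.00109). Jak1, the kinase on which gp130 signalling chiefly depends, rose by 0.14 on the log2 scale (edgeR adjusted p = 0.0115). The Jak1 call needed knockdown replicate 2 (adjusted p = 0.0591 without it) and was absent in all 3 tests on FPKM (0.12 at the lowest, 0.1497 at the highest; lowest of all alternatives 0.00284), which leaves 0 rising genes in the relay. Ptpn11, which encodes SHP2, fell by 0.13 on the log2 scale (edgeR adjusted p = 0.0173) and missed the threshold without knockdown replicate 3 (0.0635) or scramble replicate 1 (0.0736) or 3 (0.0768), with a range of 0.00298 to 0.0768. Tyk2 (log2 0.042, SE 0.061, edgeR adjusted p = 0.649) did not pass.

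Negative regulators other than Socs3 gave 1 rising and 4 falling of 15 genes (32.2% called over all genes), with a median log2 fold change of 0.00. Socs2, a SOCS protein best known for restraining growth hormone signals, averaged 59.9 ± 0.394 CPM in knockdown and 69.8 ± 2.36 CPM in scramble cells (log2 -0.22, SE 0.047, edgeR adjusted p = 7.84e-04). Ptpn2, a phosphatase that acts on JAK and STAT proteins, fell by 0.28 on the log2 scale (SE 0.065, edgeR adjusted p = 0.00149). On unfiltered FPKM values Ptpn2 missed the threshold (adjusted p = 0.0511, the alternatives spanning 4.92e-04 to 0.0511), and its log2 fold change ran from -0.49 to -0.22 over the alternatives. Pias4 rose by 0.33 on the log2 scale (SE 0.092, edgeR adjusted p = 0.00853), a call lost without knockdown replicate 1 (0.0547) and on unfiltered FPKM values (0.0599), with a range of 0.00152 to 0.0599. Without scramble replicate 2 its log2 fold change was 0.21. Socs1, the closest relative of Socs3 in JAK inhibition, was low, at 3.91 ± 0.0985 CPM in knockdown and 4.12 ± 0.619 CPM in scramble cells (log2 -0.072, SE 0.14, edgeR adjusted p = 0.756).

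Textbook STAT3 target genes went both ways, with 4 rising and 6 falling of 20 and a median log2 fold change of -0.08. Beside them stand 32.2% called over all genes and 40.9% over those averaging at least 5 CPM. The kinase gene Pim1 had 31.0, 27.8 and 30.7 CPM in knockdown replicates 1, 2 and 3, against 44.7, 45.6 and 44.4 CPM in scramble replicates (log2 -0.59, SE 0.057, edgeR adjusted p = 2.79e-08). Steap4, a metalloreductase, fell by 0.27 on the log2 scale (SE 0.067). Vegfa, the angiogenic growth factor, had 737, 725 and 751 CPM in knockdown replicates, against 491, 499.9 and 509 CPM in scramble replicates (log2 0.56, SE 0.042, edgeR adjusted p = 6.12e-10). Saa3, an acute-phase gene also driven by NF-kappaB, rose by 0.23 on the log2 scale, and Bcl3, an IkappaB-family cofactor, rose by 0.24 on the log2 scale (SE 0.057). Junb fell by 0.12 on the log2 scale (edgeR adjusted p = 0.0276) and did not pass without knockdown replicate 3 (0.145) or scramble replicate 1 (0.108) or 2 (0.0661) and on unfiltered FPKM values (0.0644), with a range of 0.0135 to 0.145. Timp1, among the most abundant targets at 3023 ± 56.4 CPM in knockdown and 3051 ± 225 CPM in scramble cells, had a log2 fold change of -0.013 (SE 0.052, edgeR adjusted p = 0.880). Cebpd (log2 0.096, SE 0.044, edgeR adjusted p = 0.104) passed without knockdown replicate 2 (0.0418; range 0.0418 to 0.266), and Cebpb (log2 -0.093, SE 0.11, edgeR adjusted p = 0.592) without knockdown replicate 1 (0.0207; range 0.0207 to 0.924).

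Factors that set Il6 transcription or mRNA decay gave 4 rising and 7 falling of 16 genes. Their median log2 fold change was -0.12, while Il6 itself had -0.0063. Over all genes tested 16.4% rose and 15.8% fell, and 40.9% of those averaging at least 5 CPM were called. Nfkbiz, the nuclear IkappaB protein that NF-kappaB needs at the Il6 promoter, had 189, 192 and 189 CPM in knockdown replicates 1, 2 and 3, against 132, 149 and 141 CPM in scramble replicates (log2 0.44, SE 0.045, edgeR adjusted p = 9.67e-08). Atf3, a repressor of Il6 in mouse macrophages, averaged 7.63 ± 0.454 CPM in knockdown and 5.32 ± 0.509 CPM in scramble cells (log2 0.52, SE 0.11, edgeR adjusted p = 0.00104). The NF-kappaB subunit gene Rela fell by 0.30 on the log2 scale (SE 0.050). Zfp36l1, an RNA-binding protein that destabilizes AU-rich mRNAs, had 133, 139.8 and 120.1 CPM in knockdown replicates, against 196, 195 and 199 CPM in scramble replicates (log2 -0.58, SE 0.049, edgeR adjusted p = 3.41e-09). Zc3h12a, the ribonuclease Regnase-1 that cleaves Il6 mRNA, averaged 71.99 ± 0.962 CPM in knockdown and 80.5 ± 1.66 CPM in scramble cells (log2 -0.16, SE 0.045, edgeR adjusted p = 0.00737).

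**Figure D4:**
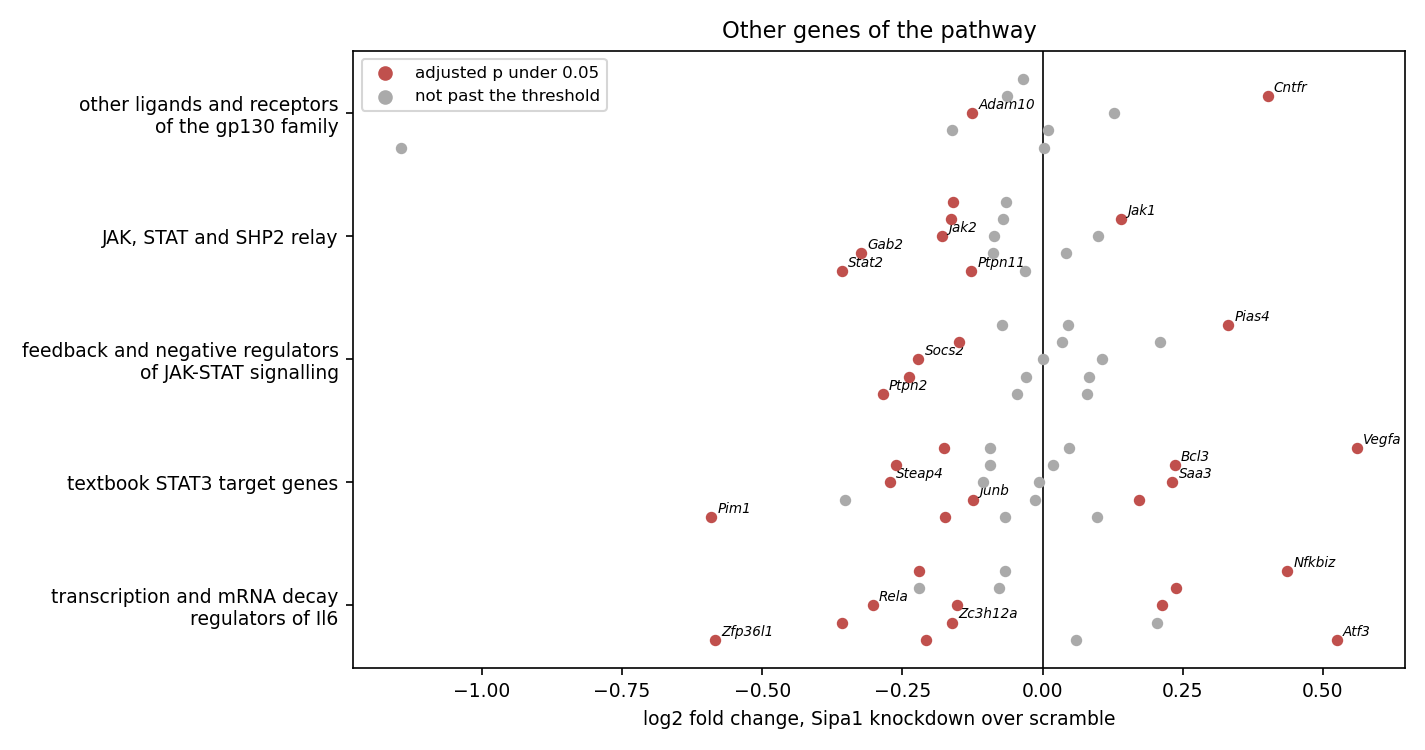
Log2 fold change (knockdown over scramble, edgeR) of the other genes of the pathway in 5 groups; red points have an adjusted p under 0.05 and some are named. Points past the threshold lie on both sides of 0 in every group, from -0.59 for Pim1 to 0.56 for Vegfa.

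A pair of 7-base words in 3′ untranslated regions was searched for, GCACAAC and GTCGCCC, chosen because earlier results of these data had tied them to fold changes. Among 13232 tested genes with a GENCODE M21 3′ untranslated region of at least 50 bases, GCACAAC stood in 655 (4.95%), with a median log2 fold change of -0.09 in carriers and 0.01 in the rest. GTCGCCC stood in 189 (1.43%), with a median of 0.17 in carriers and 0.00 in the rest. The words were picked from these data, so these medians are not support for a link. Longer regions hold any given word more often, and length was not matched. Neither word was found in the longest annotated 3′ untranslated region of any of the 10 members. Of the pathway genes named above, Stat2, Gab2, Pim1 and Atf3 carry GCACAAC and Pias4 carries GTCGCCC, and the part of these words in their changes was not tested.

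Other cells in the culture could add transcripts of this family, and fewer cells of a type cannot be told apart from less RNA per cell in bulk samples. Beside each count of markers below stand 16.4% rising and 15.8% falling over all genes tested. Of 6 mesothelial or epicardial markers 4 rose and 0 fell. Their summed levels were 67.7 to 76.6 CPM in knockdown and 39.6 to 42.7 CPM in scramble libraries. The 9 macrophage markers summed to 161 to 168 CPM in knockdown and 141 to 155 CPM in scramble libraries, with 1 rising (Csf1r) and 0 falling, and Ptprc, the pan-leukocyte marker, at 2.24 CPM in knockdown and 1.95 CPM in scramble cells. Endothelial markers summed to 169 to 179 CPM in knockdown and 162 to 179.6 CPM in scramble libraries, with 2 rising and 1 falling of 6. Of 5 pericyte or smooth muscle markers that have a row, 0 rose and 2 fell, at 49.9 to 54.8 CPM in knockdown and 73.7 to 78.3 CPM in scramble libraries. Cardiomyocyte markers (4 of 6 with a row) summed to 25.5 to 32.7 CPM in knockdown and 20.7 to 22.4 CPM in scramble libraries, nearly all from Tnnt2, which rose. The 4 T cell markers have no row in the table. The part of these shifts in the members' values was not tested.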

How the data were processed

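The members, gene lists and tests were chosen with earlier results of these data known. HISAT2, StringTie and the mouse build mm10 are named, without versions, in the submitters' processing notes; the libraries were stranded and paired, per the labels' protocols, and whether counting used the strand is not stated in those sources. The authors deposited 1 table, copied for each sample: raw read counts per gene, FPKM and TPM (both scaled for transcript length), and normalized log2 values of a transformation that is not stated. Their comparison columns hold a deposited signed fold score, a mean normalized signal, a log2 standard error, a statistic and p-values. Every gene listed has at least 1 read in every library.

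The deposited counts went into edgeR 4.0.16 (R 4.3.3) with its default low-count filter, TMM scaling and a robust quasi-likelihood F test of knockdown over scramble, two-sided, with Benjamini-Hochberg adjustment over 15954 genes and a threshold of 0.05. The SE is the fitted log2 fold change over the square root of F, and 95% intervals use the t quantile. CPM means carry the SD. The fit was tested on simulated counts. Coordinates and promoter windows are RefSeq's on GRCm38.p6, the assembly of mm10.

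Named genes were all members, Sipa1, up to 2 rising and 2 falling genes of each of 5 pathway lists by smallest adjusted p, and 17 fixed genes; some genes of the lists are not reported here and are not counted in them. Alternatives were other scaling (RLE, library size only), no filter or 1 CPM in 3 libraries, DESeq2 1.42.0, limma-voom (limma 3.58.1), a fit without the robust option, a block for replicate number, and leaving out each library. The authors' FPKM values were tested with limma after adding 1 or 0.1 and taking log2, keeping genes whose mean FPKM in either group reached 0.5, and once unfiltered after adding 1.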

Additional observations from a re-analysis of the deposited data

How the results depend on the processing

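The calls of Il11, Socs3, Lif, Il6st and Lifr, and of Sipa1, held in all 17 alternatives, and for the 10 members 156 of 170 alternative values kept direction and side of the threshold. Osmr was no longer called without a filter (-0.10), with a non-robust fit (-0.11), on log2(FPKM + 1) (-0.11, with or without a filter), on log2(FPKM + 0.1) (-0.11), and without some libraries (-0.13 to -0.085 over the libraries left out, which also leave fewer samples); the cause was not tested. The count of falling members was thus 3 or 4, and that of rising members 2 throughout. For 3 members near 0 the sign changed when single libraries were left out: Il6 ranged from -0.073 to 0.045, Clcf1 from -0.047 to 0.0057 and Stat3 from -0.037 to 0.012, none past the threshold, while Il6ra ranged from 0.013 to 0.23. Among other genes, leaving out libraries gave -0.21 to 0.010 for Cebpb, -0.046 to 0.046 for Il11ra1, -0.55 to 0.12 for Osm and -0.048 to 0.0498 for Timp1; Il11ra1 also gave -0.0010 with the filter of 1 CPM in 3 libraries and Osm 0.078 with limma-voom. Genes called ranged from 1995 to 2710 rising and 1902 to 2651 falling over all alternatives. In the list of other ligands and receptors, counts of 1 rising and 1 falling became 0 or 1 and 0, 1 or 2; the single rising genes of the relay and of the negative regulators became 0 in 4 and 2 alternatives. Same-numbered libraries did not deviate together (correlations 0.00405, -0.00912 and -0.0101). That cannot show whether same-numbered samples shared a culture or animal, which is not labelled. With the replicate block 2710 genes rose and 2597 fell, with 2 rising and 4 falling members. Low counts limit Osm, Il6ra, Socs1 and Cntfr.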
